A study of Populus ussuriensis with 12 samples.

Results

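A set of 223 genes was examined that PEG repressed in roots of wild-type *Populus ussuriensis*, a poplar, and repressed less in roots that overexpressed PuC3H35, a CCCH zinc finger protein. The set was taken from 35907 gene identifiers by a rule on mean log2(FPKM + 1) per group, where FPKM is a count of sequenced fragments scaled to gene length and library total. Wild type (WT) on PEG had to be at least 1 below WT on control medium. The overexpressor (PuC3H35-OE, here OE) on control medium had to differ from WT by more than -0.5 and less than 0.75, OE on PEG had to lie less than 0.5 below OE on control medium, and the highest group mean had to be at least 5 FPKM. Since 1 on the log2 scale is 2-fold, members lost more than 50% of their level in WT. They were 1.31% of the 17044 genes that reached 5 FPKM and 29.3% of the 760 of these that met the limit for repression in WT.

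The libraries formed 4 groups of 3, all from roots of plants grown in vitro. WT and PuC3H35-OE plants were 7 days old when moved to 1/2 MS medium, either without PEG6000 or with 6% PEG6000, and were harvested 7 days later at an age of 14 days. Libraries are named here by the numbers in the sample labels, which are 1, 2 and 3 for both WT groups, 1, 2 and 5 for OE on control medium and 1, 3 and 4 for OE on PEG. The labels give neither the promoter nor the number of transgenic lines, and they do not say that libraries came from separate plants. The effect of PuC3H35 and that of the transgenic material cannot be told apart in this design.

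Polyethylene glycol of high molecular weight lowers the water potential of the medium without entering the cell wall readily, and is used to impose drought-like osmotic stress. Roots under osmotic stress commonly lower the expression of genes for growth, cell wall extension and nutrient uptake and raise that of genes for osmotic protection. CCCH zinc finger proteins are a family that binds RNA or DNA, and plant members are known to act in stress responses at the level of transcription or of mRNA. With 0 identifiers paired with a name or product in the files, the members are given by identifier, and their functions, the level of PuC3H35 and the root label itself were not checked.

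Each library held 10566925 to 12053892 reads recovered from the FPKM steps and 30432 to 31610 genes above 0. A member had a median of 100 reads per library in WT on PEG and 232 in the other groups. Only 8 of 2676 member values, in 4 members, came from fewer than 10 reads, and 0 members were at 0 reads in any library. All 223 members passed the filter of the test across 24976 genes. Because the rule used all 4 group means, every contrast below describes how the members were chosen, and nothing is read from their calls or from the share called among all genes. In bulk roots, fewer cells of a type and less RNA per cell cannot be told apart.

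As a group the members stood lowest in the 3 WT libraries on PEG. Their median log2 difference from the WT control mean was -0.18, 0.15 and 0.01 in WT control libraries 1, 2 and 3, and -0.12, -0.16 and -0.18 in OE control libraries 1, 2 and 5. It was -1.33, -1.02 and -1.25 in WT PEG libraries 1, 2 and 3, and -0.53, -0.39 and -0.26 in OE PEG libraries 1, 3 and 4. The medians of the 3 WT PEG libraries lay below those of all 9 other libraries, and those of the 3 OE PEG libraries lay between WT on PEG and every control library. Over all tested genes the same median stayed between -0.06 and 0.10 in all 12 libraries. The members held 1.99% to 2.57% of the summed FPKM in WT on control medium and 0.772% to 1.02% in WT on PEG. In OE they held 1.95% to 2.52% on control medium and 1.70% to 2.04% on PEG. A few abundant members weigh heavily in these shares. In WT control library 1 the members summed to 12052 FPKM, and the 3 most abundant had 2791, 2490 and 1441 FPKM. In OE control library 1, Potri.001G158400.v3.1 alone had 6196 of 15470 FPKM.

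**Figure D1:**
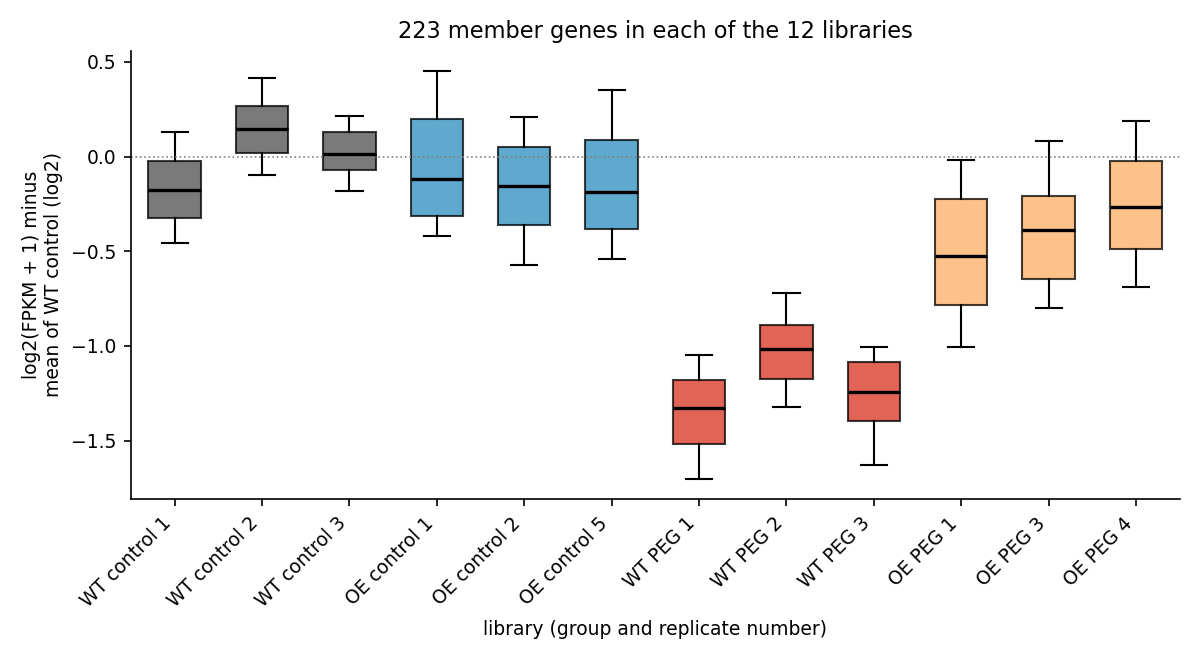
Difference of each of the 223 members from its mean in WT on control medium, on the log2(FPKM + 1) scale, in each of the 12 libraries; the line in a box is the median, boxes span the quartiles and whiskers the 10th to 90th percentiles over genes. The 3 WT PEG libraries have medians of -1.33 to -1.02 and the 3 OE PEG libraries of -0.53 to -0.26.

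In WT, PEG left the members at a median of 39.4% of their control level, with a range over genes of 14.5% to 49.3%. The log2 change ran from -2.02 up to the limit of the rule, with a median of -1.16, beside -0.04 over all tested genes. Most members sat near the limit of the rule: 164 of 223 fell by less than 1.3 on the log2 scale and 25 by 1.5 or more. With limma (adjusted p under 0.05), 221 members were called lower, in a background where 16.6% of all tested genes were called lower. All 3 WT PEG libraries lay below all 3 WT control libraries in 220 members, as they did in 25.3% of tested genes.

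Potri.012G105700.v3.1 had the largest fall. Its level was 35.1, 45.9 and 32.7 FPKM in WT control libraries 1, 2 and 3 and 7.05, 10.5 and 8.21 FPKM in WT PEG libraries 1, 2 and 3. In OE it was 32.3, 21.1 and 27.1 FPKM in control libraries 1, 2 and 5 and 15.7, 20.2 and 24.0 FPKM in PEG libraries 1, 3 and 4. The WT PEG libraries were the lowest 3 of the 12, while the OE PEG and OE control libraries overlapped. The log2 change on PEG was -2.02 ± 0.20 (SE) in WT and -0.41 ± 0.20 in OE. The next largest fall was that of Potri.005G001600.v3.1, from 9.78, 16.6 and 11.3 FPKM in WT control libraries to 1.89, 2.77 and 2.40 FPKM in WT PEG libraries. In OE this gene had 7.95, 9.04 and 10.4 FPKM on control medium and 4.97, 6.12 and 8.48 FPKM on PEG. Again the WT PEG libraries were the lowest 3 of the 12, with a log2 change of -1.99 ± 0.20 (SE) in WT beside -0.45 ± 0.20 in OE. In both genes all OE PEG libraries lay below all WT control libraries, with log2 differences of -0.90 and -0.85.

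In the 2 most abundant members WT on PEG was also the lowest group, at levels more than 100 times the median of the set, which was 14.5 FPKM in the highest group. Potri.001G158400.v3.1 had 2791, 5399 and 3773 FPKM in WT control libraries, 1057, 1796 and 1254 FPKM in WT PEG libraries, 6196, 3421 and 3758 FPKM in OE control libraries and 3701, 4551 and 5147 FPKM in OE PEG libraries. WT on PEG did not overlap any other group, and the other 3 groups overlapped each other. Potri.004G015300.v3.1 varied less between libraries, with 2490, 2410 and 2415 FPKM in WT control libraries and 869, 1159 and 1027 FPKM in WT PEG libraries. It had 2249, 2219 and 2218 FPKM in OE control libraries and 1686, 1961 and 1875 FPKM in OE PEG libraries. Here no pair of groups overlapped, and OE on PEG lay between WT on PEG and both control groups. The third member above 1000 FPKM, Potri.005G172400.v3.1, had 1441, 843 and 1034 FPKM in WT control libraries, 535, 528 and 544 FPKM in WT PEG libraries, 1061, 915 and 472 FPKM in OE control libraries and 813, 978 and 381 FPKM in OE PEG libraries. Its WT groups did not overlap, but OE control library 5 and OE PEG library 4 lay below every WT PEG library. It was called lower in WT, a call lost in 10 of 19 alternatives, and was not called higher in OE on PEG. Of the 223 members, 12 reached 100 FPKM, 3 reached 1000 FPKM and 80 stayed under 10 FPKM. The median change in WT was -1.14 for those under 10 FPKM, -1.16 for the 131 from 10 to under 100 FPKM and -1.31 for the 12 above.

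**Figure D2:**
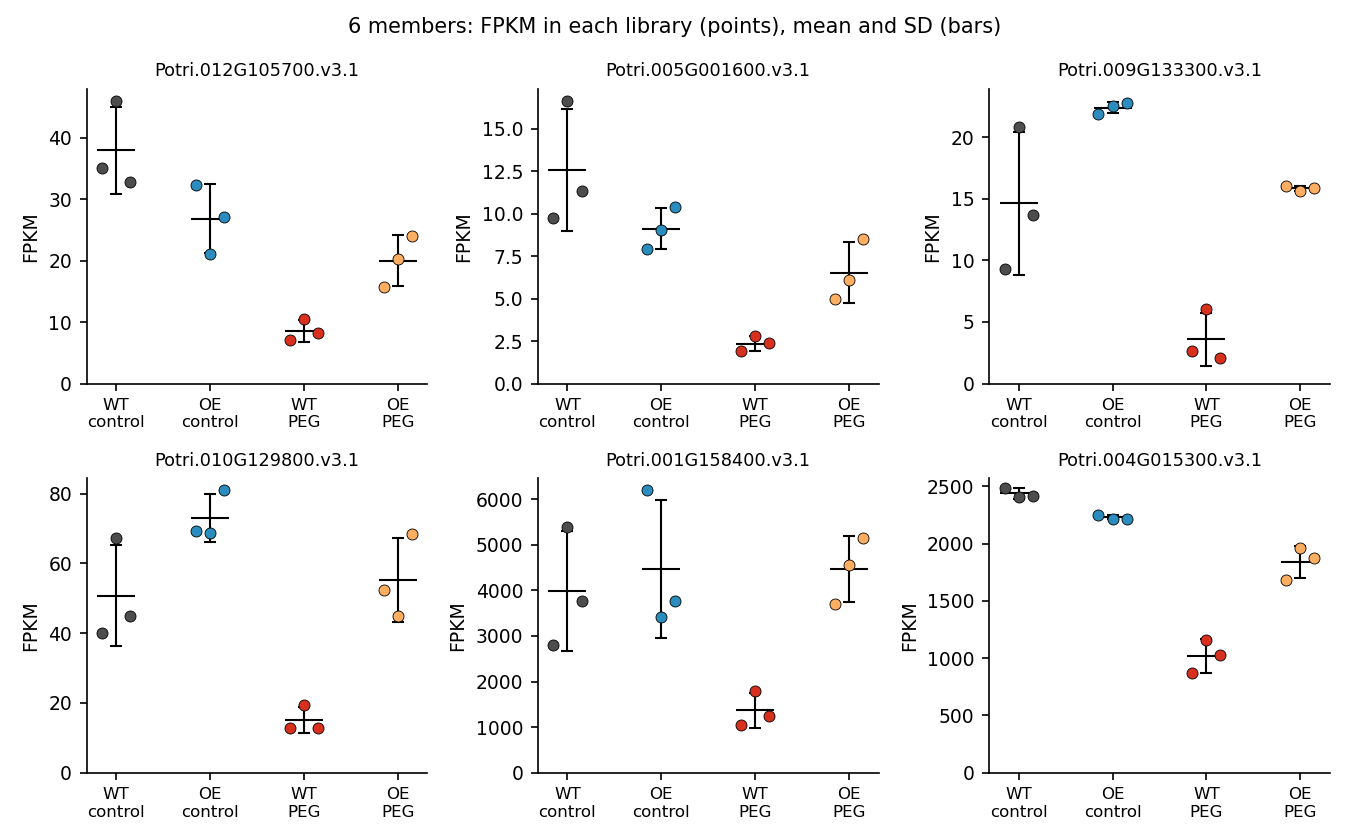
FPKM of 6 members in each library (points), with the group mean and SD (bars, n = 3), on axes that start at 0; they are the 2 with the largest fall in WT, the 2 with the highest OE over WT difference on PEG and the 2 most abundant. In all 6, the 3 WT PEG libraries are the lowest of the 12.

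The exceptions in WT were few. Potri.014G026900.v3.1 and Potri.005G071200.v3.1, both named after their values were seen, met the rule but were not called lower by limma in WT, though both were called without WT PEG library 2. The former had 6.01, 18.5 and 11.8 FPKM in WT control libraries and 4.14, 8.85 and 2.097 FPKM in WT PEG libraries, so the groups overlapped. The latter had 5.31, 4.57 and 5.99 FPKM in WT control libraries and 0.360, 3.76 and 2.92 FPKM in WT PEG libraries, and the lowest of these values rested on 2 reads. Its OE levels were 6.20, 3.80 and 2.44 FPKM on control medium and 5.39, 7.06 and 4.55 FPKM on PEG, an overlapping pair of groups with the highest PEG change in OE of any member, 0.42 ± 0.39 (SE) on the log2 scale.

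On control medium, OE stood at a median of 86.2% of the WT level, from 65.0% to 159% over the members. The median log2 difference was -0.19 in the members and 0.08 over all tested genes. OE was below WT in 147 members and above WT in 76, and below WT in 40.3% of all tested genes. Limma called 11 members lower in OE, where the background was 7.56% of tested genes, and 3 higher, where it was 12.8%. The 3 higher ones were Potri.010G173300.v3.1, Potri.018G114600.v3.1 and Potri.008G221700.v3.1, named after their values were seen, with log2 differences of 0.48, 0.55 and 0.52. Their calls were lost in 13, 8 and 10 of 19 alternative settings, among them most of those that left out a control library. All 3 OE control libraries lay below all 3 WT control libraries in 48 members (13.7% of tested genes) and above them in 11 (24.3% of tested genes).

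Within OE, PEG lowered the means of most members by an amount under the limit set by the rule. OE on PEG was at a median of 79.0% of OE on control medium, from 62.9% to 137%. The log2 change had a median of -0.31, beside -0.05 over all tested genes, and was negative in 205 members and positive in 18. It was negative in 62.1% of all tested genes. In 141 members the mean was lower by 0.25 or more on the log2 scale. Limma called 1 member lower on PEG in OE (background 0.537% of tested genes) and 0 higher (background 1.54%). At an unadjusted p under 0.05 there were 71 lower (background 7.32% of tested genes) and 1 higher (background 5.63%). The 3 OE PEG libraries lay below the 3 OE control libraries in 77 members, or 34.5%, as they did in 10.7% of tested genes.

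The 1 member called lower was Potri.009G070400.v3.1, named after its values were seen. It had 38.3, 42.4 and 40.8 FPKM in OE control libraries and 28.7, 29.5 and 30.9 FPKM in OE PEG libraries, with no overlap. In WT it had 39.7, 37.5 and 36.6 FPKM on control medium and 16.8, 19.7 and 17.4 FPKM on PEG. Its replicates were tight in all 4 groups, with a log2 change on PEG of -0.44 ± 0.08 (SE) in OE and -1.04 ± 0.08 in WT. The call in OE was lost in 6 of 19 alternatives, among them those without OE control library 2 or 5 and without OE PEG library 1 or 3.

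**Figure D3:**
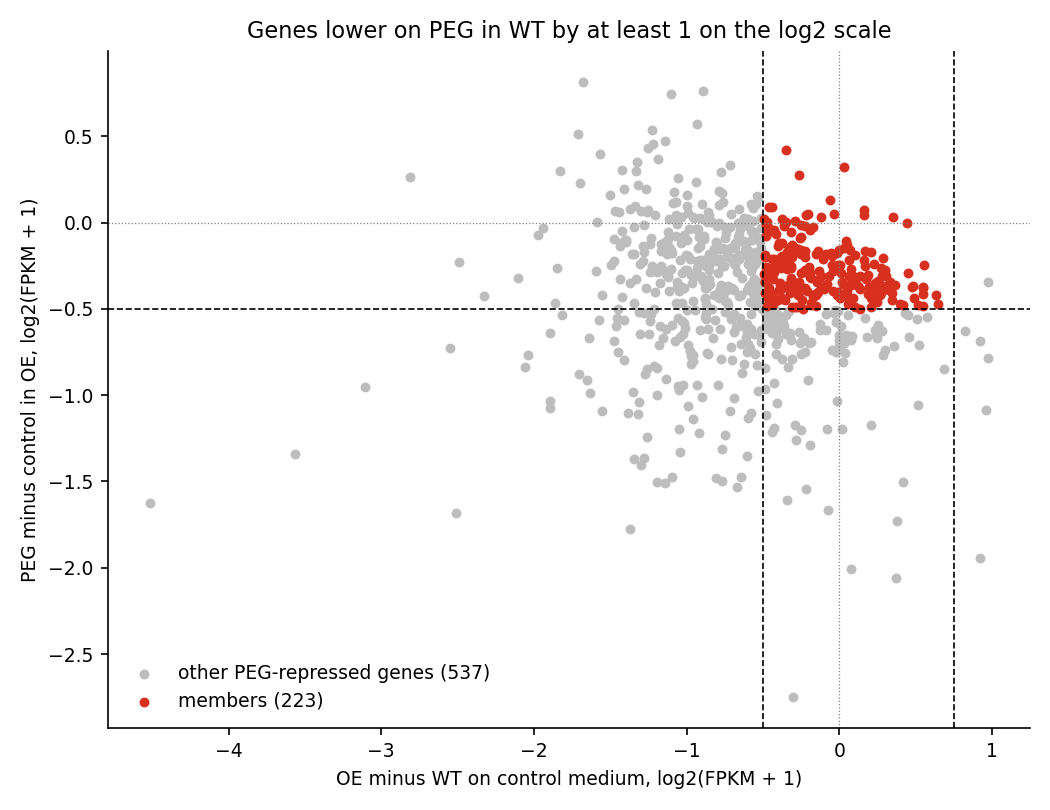
The 760 genes with a log2 change on PEG in WT of -1 or lower, by their OE minus WT difference on control medium (horizontal) and their PEG minus control change in OE (vertical), both on the log2(FPKM + 1) scale; dashed lines are the limits of the rule and dotted lines mark 0. Members (red, 223) lie mostly below 0 on the vertical axis, with 18 above it, and 425 other genes lie at or left of -0.5.

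On PEG, the members were higher in OE than in WT, by a median of 0.80 on the log2 scale and a range of 0.19 to 1.97, beside 0.08 over all tested genes. The difference reached 1 in 70 members and stayed under 0.5 in 32. Limma called 174 members higher in OE and 0 lower, where the background was 9.19% and 5.3% of tested genes. At an unadjusted p under 0.05 there were 209 higher and 0 lower, where the background was 18.9% and 9.96%. All 3 WT PEG libraries lay below all 3 OE PEG libraries in 193 members, as in 22.6% of tested genes. They lay below all 9 other libraries in 190 members, as in 9.14% of tested genes.

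Potri.009G133300.v3.1 had the widest gap between the genotypes on PEG. It had 2.62, 6.08 and 2.097 FPKM in WT PEG libraries and 16.1, 15.7 and 15.9 FPKM in OE PEG libraries, a log2 difference of 1.97 ± 0.29 (SE). On control medium it had 9.31, 20.9 and 13.7 FPKM in WT and 21.9, 22.5 and 22.8 FPKM in OE. All OE control libraries were thus above all WT control libraries, and this member also had the highest OE over WT difference on control medium, 0.65 ± 0.29 (SE). Potri.010G129800.v3.1 was next, with 13.0, 19.4 and 12.9 FPKM in WT PEG libraries and 52.3, 45.0 and 68.5 FPKM in OE PEG libraries, a log2 difference of 1.81 ± 0.21 (SE). Its control levels were 40.1, 67.1 and 44.8 FPKM in WT and 69.2, 68.8 and 80.9 FPKM in OE, which did not overlap either.

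Set against WT on control medium, most members in OE on PEG were at a reduced level. The median was 72.8% of the WT control level, from 47.4% to 133%. The log2 difference was below 0 in 196 members and at most -0.5 in 83, within 0.25 of 0 in 72, and above 0 in 27. It was below 0 in 45.7% of all tested genes. Limma called 88 members lower than WT control (background 11% of tested genes) and 1 higher (background 14.1%). It called 57 members both higher than WT on PEG and lower than WT on control medium. The share of all tested genes with both calls was not counted. The 3 OE PEG libraries lay below the 3 WT control libraries in 98 members, as in 17.2% of tested genes. The 1 higher member was Potri.006G117900.v3.1, named after its values were seen, with 47.2, 47.5 and 46.2 FPKM in WT control libraries and 60.1, 58.4 and 63.0 FPKM in OE PEG libraries. It had 45.1, 42.5 and 57.9 FPKM in OE control libraries and 20.1, 25.5 and 22.9 FPKM in WT PEG libraries, so that OE on PEG was the highest group and WT on PEG the lowest. Its call against WT on control medium was lost in 10 of 19 alternatives, including the removal of any 1 library of either compared group. In every member, the limits of the rule placed OE on PEG above WT on PEG. A smaller loss in OE than in WT was thus built in, and only its size differed between members.

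Expressed as a share of the gap between WT on control medium and WT on PEG, OE on PEG made up a median of 64.9%, under 50% in 55 members and at least 90% in 48. This share differed with the level of OE on control medium, which enters OE on PEG through the limits of the rule. Among the 147 members that were lower in OE than in WT on control medium, the median share was 55.5% and the median difference from WT control was -0.54. Among the 76 that were higher, the share was 92.0% and the difference -0.09. The share was 64.3%, 65.7% and 63.4% in members under 10, from 10 to under 100, and at or above 100 FPKM.

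**Figure D4:**
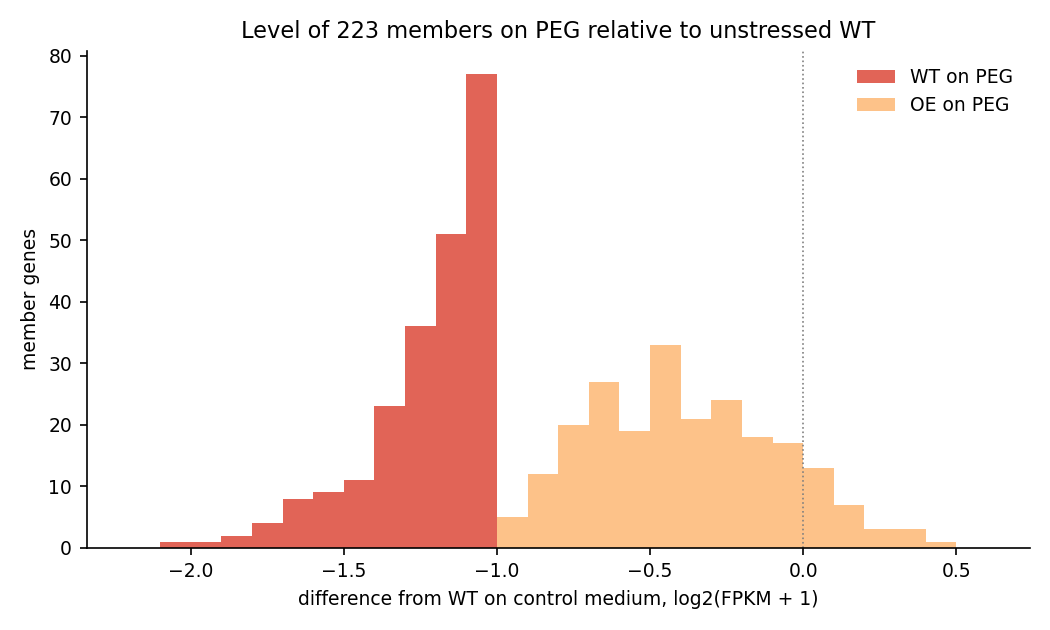
Number of members (vertical) by their difference from WT on control medium on the log2(FPKM + 1) scale (horizontal), for WT on PEG and OE on PEG; the dotted line marks the WT control level. WT on PEG ends at the limit of -1 that the rule set, and OE on PEG runs from -0.96 to 0.44 with a median of -0.41.

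The difference between the PEG responses of the genotypes, as the interaction term of the fit, had a median of 0.92 on the log2 scale in the members and -0.01 over all tested genes. Limma called it more positive in OE in 126 members (background 3.5% of tested genes) and more negative in 0 (background 4%). At an unadjusted p under 0.05 it was more positive in 212 (background 11.5%) and more negative in 0 (background 10.6%). All of the calls for lower in WT on PEG, higher in OE on PEG and a more positive interaction were made in 116 members. A further 58 were called higher in OE on PEG without a called interaction. The shares of all tested genes with these combinations were not counted, so nothing is read from them. The count of interaction calls fell to 78 without WT control library 3, to 64 without WT PEG library 1 and to 72 without WT PEG library 3. Over all tested genes, the calls for a more positive interaction fell from 873 to 504, 358 and 450 in the same settings.

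The 537 PEG-repressed genes outside the rule were set beside the members. In 425 of them OE on control medium was already at least 0.5 below WT, in 106 OE on control medium was within the limits but the fall on PEG in OE was 0.5 or more, and in 6 OE on control medium was at least 0.75 above WT. The change on PEG in OE, as a percentage of the change in WT, had a median of 24.7% in the members, 26.2% in the 537 and 20.5% in the 425. The medians of the change within OE were -0.31 and -0.30 in the members and the 425, and those of the fall in WT were -1.16 and -1.51. The rule cut the members off at -0.5 within OE, while the lower quartile of the 425 was -0.59 and their lowest value -1.78. The median OE minus WT difference on control medium was -0.19 in the members and -0.91 in the 425, as the rule set it. Relative to WT on control medium, OE on PEG stood at a median log2 difference of -0.41 in the members and -1.22 in the 425. In the 106, the change in OE was 49.8% of that in WT. These shares use group means common to both terms, and the differences between the sets follow from the limits, so they carry no test. Limma called 278 of the 537 more positive in the interaction, 330 lower in OE on control medium and 52 lower on PEG in OE.

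Gene length played no part in the rule. Recovered from the FPKM steps, it had a median of 1582 bases in the members, 1490 bases in the 537 other repressed genes and 1776 bases over all genes at 5 FPKM or more. The within-group SD on the log2 scale had a median of 0.23 in the members for WT control, 0.17 for OE control, 0.21 for WT PEG and 0.19 for OE PEG. Over all genes at that level it was 0.15, 0.14, 0.11 and 0.15, and in the other repressed genes 0.27, 0.25, 0.26 and 0.29. These SDs come from the libraries whose means chose the genes, so they are given as a description.

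The libraries within a group did not contribute evenly. The lowest of the 12 values was in WT PEG library 1 in 132 members, in WT PEG library 3 in 75 and in WT PEG library 2 in 13. The highest was in WT control library 2 in 95 members and in OE control library 1 in 45. By group mean, WT on control medium was highest in 146 members, OE on control medium in 71 and OE on PEG in 6.

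The identifiers carry a block number, and members occurred in all 19 numbered blocks and among the identifiers with a T prefix. Members made up 0.609% of the genes at 5 FPKM or more in block 7, the lowest share, and 1.78% in block 15, the highest among numbered blocks. Within 5 places of each other on 1 block lay 5 pairs of members. Such pairs were not counted in other sets of genes, so nothing is read from this number. Potri.008G131300.v3.1 and Potri.008G131600.v3.1, 3 places apart and 889 and 893 bases long, were 1 such pair. The first had 129, 164 and 142 FPKM in WT control libraries and 45.3, 56.5 and 61.8 FPKM in WT PEG libraries, and the second 29.3, 37.4 and 34.0 and 13.7, 13.9 and 11.7 FPKM. Both fell clear of their control range. On PEG in OE the first had 114 ± 18.9 FPKM and the second 18.01 ± 1.96 FPKM (SD, n = 3). Whether their sequences are alike was not checked. How the authors' counting divided reads between neighbours, if these are alike, is not given in the sources used here, so the split is uncertain.

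Because the limits were applied to the same libraries that give the values, each library was also left out of the choice in turn, an alternative view chosen after seeing the data. The change was then measured with the left-out library in place of its group mean, while the opposite group still came from the libraries that chose the genes. When a WT PEG library was left out, the median change in WT was -1.15, -1.21 and -1.17 in the choosing libraries and -1.33, -0.93 and -1.17 in left-out libraries 1, 2 and 3. When a WT control library was left out, it was -1.20, -1.15 and -1.15 in the choosing libraries and -0.90, -1.34 and -1.21 in left-out libraries 1, 2 and 3. The medians were above -1 in WT control library 1 and WT PEG library 2 and below it in the other 4. Since the opposite WT group had chosen the genes, a negative median was in part built in, and nothing is read from its sign.

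For the change within OE, the left-out OE PEG libraries 1, 3 and 4 gave medians of -0.43, -0.31 and -0.16, beside -0.24, -0.28 and -0.33 in the choosing libraries. With OE PEG library 1 left out, 92 of the 239 genes then chosen, or 38.5%, were at -0.5 or lower in that library. Past this limit of the rule were 16.2% for left-out OE PEG library 3 and 17.6% for library 4. The share of all tested genes past it was not counted. The opposite OE group had also chosen the genes, so nothing is read from these shares. The left-out OE control libraries 1, 2 and 5 gave medians of -0.38, -0.21 and -0.23. The number of genes chosen ran from 187 without WT PEG library 1 to 298 without WT PEG library 2, and 160 to 218 of them were among the 223.

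**Figure D5:**
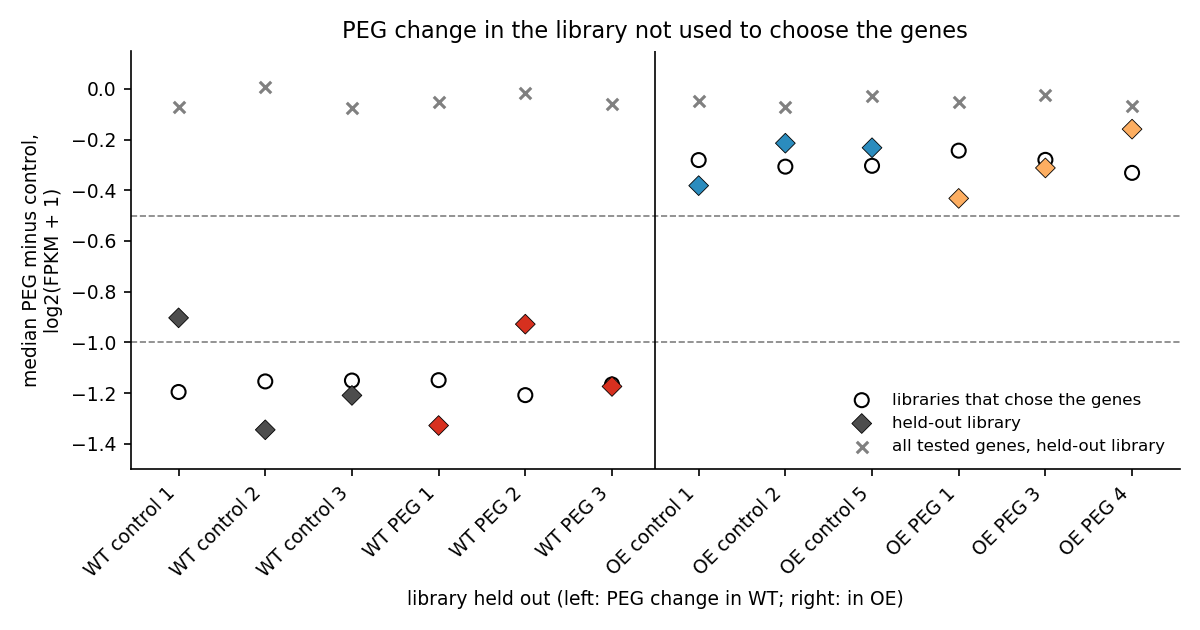
Median PEG minus control change on the log2(FPKM + 1) scale (vertical) of genes chosen without the library named on the horizontal axis, in the libraries that chose them (open circles) and in the left-out library (diamonds), with all tested genes in that library (crosses); dashed lines are the limits of -1 and -0.5. Left-out values in WT lie between -1.34 and -0.90 and in OE between -0.43 and -0.16.

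Many members lay close to a limit of the rule. Within 0.1 of it on the log2 scale were 77 members for the fall in WT, 56 for the change in OE and 39 for the lower limit on control medium. The nearest gene outside the limit for WT had a change of -0.996, and the nearest member inside lay at the limit. For the change in OE the nearest values were -0.499 inside and -0.507 outside. They were -0.495 inside and -0.505 outside for the lower limit on control medium, 0.65 inside and 0.97 outside for its upper limit, and 5.02 FPKM inside and 4.99 FPKM outside for the level. Genes that failed only 1 condition numbered 14294 for the fall in WT, 106 for the change in OE, 293 for the lower limit on control medium, 1 for its upper limit and 75 for the level.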

How the data were processed

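RNA-seq values were analysed for 12 root libraries in 4 groups of 3, grouped by the tissue label. Per the labels' protocols, total RNA came from a CTAB extraction and went into an Illumina TruSeq preparation. Per the submitters' processing notes, Bowtie2 2.2.3 and HISAT2 2.1.0 were used, with no role stated for either. Which tool counted the reads is among what the sources used here do not give. The identifiers given here start with Potri and end in v3.1, which marks a version of a gene set. The species and genome build of that gene set are not stated, nor whether they match the plants sequenced.

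The deposited files hold 1 value per gene and library with no unit in the header. The values were taken as FPKM made by the authors, since 100% of 370737 values above 0 became whole reads within 0.01 read after division by 1 step per gene and library. FPKM and RPKM cannot be told apart this way. Recovered totals of 10566925 to 12053892 reads per library served for depth, gene length and an alternative test.

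The test was limma 3.58.1 in R 4.3.3 (empirical Bayes with a trend, two-sided) on log2(FPKM + 1), which understates changes of low genes. It was 1 fit of 4 group means to 12 libraries, with 8 residual degrees of freedom, over 24976 genes with at least 1 FPKM in 3 libraries. P-values were adjusted by Benjamini-Hochberg across all of these genes, and called means an adjusted p under 0.05. SE is limma's moderated standard error and SD is over 3 libraries. Nothing says that libraries are separate plants, so p-values reflect only the spread among these samples, which may be technical. The scripts were tested on simulated data.

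The members and lists were chosen with earlier results of these data known. Named members are those with the largest fall in WT, the highest OE over WT difference on PEG, the highest level, extreme values in OE, or neighbouring identifiers, with exceptions marked in the text. Lists of gene classes, tissue markers and promoter motifs were not applied, because 0 identifiers are paired with names. Replicate numbers had no stated meaning, and deviations of same-numbered libraries from their group means had no common direction, so libraries were not paired. Alternatives were another pseudocount, no filter, median-ratio and upper-quartile scaling, limma-voom on recovered reads, a replicate block, a fit of only the compared libraries, and each library left out.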

Additional observations from a re-analysis of the deposited data

Results flagged for a closer look

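Responses to PEG that differed between the genotypes by the interaction term of limma are given here with their values. The members were chosen by the same group means, so these are descriptions. The difference was called more positive in OE in 126 of 223 members (56.5%) and in 278 of the 537 other repressed genes (51.8%). Over all tested genes, 3.5% were called more positive and 4% more negative. In the members, the direction was fixed by the limits of the rule. Among the members given in full, the interaction on the log2 scale was 1.61 for Potri.012G105700.v3.1, 1.55 for Potri.005G001600.v3.1, 1.26 for Potri.010G129800.v3.1, 1.57 for Potri.001G158400.v3.1 and 0.99 for Potri.004G015300.v3.1. In each of these 5, the 3 WT PEG libraries were the lowest of the 12. The call of Potri.001G158400.v3.1 was lost in 10 of 18 alternatives, that of Potri.010G129800.v3.1 in 3 (without OE control library 1, WT PEG library 1 or WT PEG library 3) and that of Potri.012G105700.v3.1 in 1, the replicate block. Among the members named after their values were seen, it was 1.34 for Potri.006G117900.v3.1, 0.87 for Potri.010G173300.v3.1 and 0.60 for Potri.009G070400.v3.1. The call of Potri.010G173300.v3.1 was lost in 8 of 18 alternatives, 7 of which left out 1 library, and that of Potri.009G070400.v3.1 with the replicate block. In the neighbouring pair it was 1.42 for Potri.008G131300.v3.1 and 0.87 for Potri.008G131600.v3.1, whose call was lost with the replicate block. For Potri.009G133300.v3.1 the interaction was 1.32 with an adjusted p of 0.0712 in limma, and for Potri.005G071200.v3.1 it was 1.51 with an adjusted p of 0.129.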

How the results depend on the processing

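The members called lower in WT on PEG (221) and higher in OE on PEG (174) stayed within 1.5 times these counts under every alternative, with 216 to 222 and 117 to 177 when 1 library was left out. Over all tested genes these calls were 4153 and 2296, and 2927 to 4392 and 1014 to 2400 with 1 library left out. The 126 interaction calls became 48 with the replicate block, 44 of them shared, and 64 to 149 with 1 library left out. Over all tested genes, the 873 calls for a more positive interaction became 336 and 358 to 1073 in the same settings. In the replicate block, OE control library 5 and OE PEG library 4 each had a number of their own. Neither library therefore informed the group means of that fit. The 14 calls on control medium became 7 with no filter, 22 with median-ratio scaling, 27 with limma-voom, 4 with the replicate block and 4 to 22 with 1 library left out (4 without OE control 5, 6 without OE control 1 or WT control 3, 8 without WT control 2, 9 without OE PEG 3, 22 without OE PEG 4). The 1 call for PEG in OE became 0 with the replicate block, 0 in a fit of only the libraries compared, and 0 to 1 with 1 library left out (0 without OE PEG 1 or OE PEG 3). Over all tested genes, the 3191 higher and 1889 lower calls on control medium became 2995 and 1721 with no filter. They became 2387 and 2485 with median-ratio scaling, 3277 and 2015 with limma-voom and 1907 and 1231 with the replicate block. They ran from 1990 to 3586 and from 1128 to 2130 with 1 library left out. The 134 lower calls for PEG in OE became 22 with the replicate block and 57 in a fit of only the libraries compared. The rule gave 187 to 298 genes with 1 library left out. The cause was not tested. Deviations of same-numbered libraries correlated at -0.01 to 0.10 within WT, at -0.02 in the 1 OE pair, and at -0.23 to 0.26 across genotypes, so the numbers were not taken as pairs. Median-ratio scaling moved the share of higher among all calls from 63.4% to 46.4% for OE against WT on PEG and from 62.8% to 49.0% on control medium. For the 16 named members, 1689 of 1808 values kept direction and side of the threshold, 105 lost and 14 gained the call, and 0 reversed. The 1808 values include comparisons that were not called to begin with and so could not lose a call. The interaction call of Potri.001G158400.v3.1 was lost in 10 of 18 alternatives, and the OE over WT call on PEG of Potri.008G131600.v3.1 in 12 of 19. Levels under 10 reads limit 4 members.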
